A study of Mus musculus with 12 samples.

Results

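The 39 genes described here encode the machinery that copies DNA and the regulators that open S phase, the stage of the cell cycle in which the genome is duplicated. They were chosen by gene symbol, and all 39 were found as 1 row each among the 24674 genes of the deposited expression table. By role they fall into 9 groups: 6 subunits of the MCM helicase, 6 genes of helicase activation, 5 of origin licensing and its control, 6 of the sliding clamp and its loader, 5 of the polymerases and primase, 2 of lagging strand maturation, 4 of nucleotide supply, 3 G1/S regulators and 2 of chromatin assembly. RNA was sequenced from 12 samples of prostate organoids, small epithelial structures grown in gel, in 4 groups of 3. Every group was wildtype, of the C57BL/6 strain and derived from basal cells of the mouse prostate, and the groups differed in treatment: vehicle, UK5099, butyrate, or UK5099 and butyrate together. UK5099 blocks the mitochondrial pyruvate carrier, and butyrate is a short-chain fatty acid that inhibits histone deacetylases. The comparison asks whether blocking pyruvate import and inhibiting deacetylases act alike on gene expression, and whether their effects add up. Doses, times, mouse age and the number of mice are not in the labels, and nothing there says that replicates were separate cultures or animals, so p-values measure the spread between these samples, which may be technical.

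Replication starts in G1, when the origin recognition complex (Orc1 to Orc6 subunits), Cdc6 and Cdt1 load the ring of MCM subunits on DNA, a step that geminin (Gmnn) blocks outside G1. Cdc45 and the GINS proteins turn that ring into an active helicase, primase and polymerase alpha lay down primers, replication factor C loads the PCNA clamp, and polymerases epsilon and delta extend the strands. Transcription of most of these genes is driven by E2F factors once cyclin E and its kinase have inactivated the retinoblastoma protein, so their mRNAs are abundant in cycling cells and scarce in resting ones. In bulk RNA, fewer cycling cells and less RNA per cycling cell cannot be told apart.

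Values are TPM as deposited, a unit scaled by gene length and library depth. Library depth, recovered from the smallest steps of each sample's values, was between 33251598 and 43498728 fragments, and the members held between 117 (Gins3) and 7695 (Rrm1) fragments in a sample. Levels across all genes were not centred. Over the 13345 expressed genes, those averaging 1 TPM or more, the median difference from vehicle on the log2(TPM + 1) scale was -0.12 with UK5099, -0.30 with butyrate and -0.41 with both, so members are also given after median-of-ratios scaling, which put these medians at 0.01, 0.00 and 0.00. UK5099 replicate 1 and combination replicate 1 stood apart from their groups: their pairs had a chi-square per degree of freedom of 5.80 to 6.11, against 1.89 to 2.53 for the other replicate pairs. The basal keratins Krt5 and Krt14, at 1848 ± 8.64 and 1676 ± 22.2 TPM in vehicle (SD, n = 3), and the luminal keratin Krt8, at 916 ± 19.7, were present. The markers moved with treatment. Summed over Krt5, Krt14, Krt15 and Col17a1 (4 of 4 in the table), the basal level ran from 6548 to 6673 TPM in vehicle, from 13620 to 14006 under UK5099, from 6982 to 7221 under butyrate and from 10109.7 to 10512 in the combination. The basal genes did not all move as their sum did: Krt14 and Krt15 were at 1391 ± 36.1 and 2426 ± 28.5 TPM with butyrate, against 1676 ± 22.2 and 3029 ± 61.0 in vehicle, and Krt15 was at 1932 ± 83.4 TPM with both (SD, n = 3). Krt8, Krt18 and Krt19 (3 of 3) summed to 4132 to 4301, 2328 to 2487, 2241 to 2281 and 1389 to 1576 TPM in the same order, and Epcam and Cdh1 (2 of 2) to 699 to 718, 425 to 446, 271 to 273 and 178 to 183 TPM. Lists for other cells were low: 6 fibroblast and smooth muscle genes summed to 1.02 to 1.72 TPM, 3 endothelial genes to 0.0182 to 0.0415 TPM and 2 neuroendocrine genes to 0.157 to 0.645 TPM over all samples. Of the 4 leukocyte genes, 2 were in the table: Ptprc, the defining marker, was at or near 0, and Cd68 was at 24.2 ± 0.507 TPM in vehicle and 91.7 ± 5.38 TPM with both compounds. The part of these shifts in the results below was not tested.

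In the values as deposited, most replication genes were lower with either compound and lower still with both. Summed over the 39 genes, TPM ran from 918 to 932 in vehicle, from 687 to 717 under UK5099, from 654 to 672 under butyrate and from 503 to 532 in the combination, and no 2 groups overlapped. As a share of recovered fragments, the members took 0.219 to 0.220% in vehicle, 0.169 to 0.174% under UK5099, 0.191 to 0.197% under butyrate and 0.152 to 0.162% in the combination. The order of UK5099 and butyrate thus turned with the scale: butyrate samples were lowest of the single treatments in summed TPM, and UK5099 samples in the share of fragments. In limma's model over all genes, 35 of the 39 members fell with UK5099 at a Benjamini-Hochberg adjusted p under 0.01, where 24.7% of all genes fell. With butyrate 36 fell (35.9% of all genes), and with both compounds all 39 fell (40.8% of all genes). Most members are expressed genes, and among the 13345 expressed genes the shares that fell were 38.1%, 57.6% and 64.2%. The members' median differences were -0.39, -0.44 and -0.70 on the log2(TPM + 1) scale, against the -0.12, -0.30 and -0.41 of expressed genes.

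After median-of-ratios scaling the pattern narrowed and was no longer in 1 direction. Of the 39 members, 26 then fell with UK5099 (13.6% of all genes and 19.9% of expressed genes), 1 rose (13.7% of all genes) and 12 did not pass, with a median of -0.25. With butyrate 19 fell (18.2% of all genes, 28.6% of expressed genes), 5 rose (20.2% of all genes) and 15 did not pass, with a median of -0.12. With both, 25 fell (20.6% of all genes, 31.5% of expressed genes), 3 rose (23.4% of all genes) and 11 did not pass, with a median of -0.23. The butyrate count therefore lay nearest to the background, and its median moved furthest in proportion. A stricter rule, with the limits the study used, also asks for a difference over 1 on the log2 scale. The study's methods describe it for log2 of TPM, and here it was applied to log2(TPM + 1) of the deposited values. Calls made here need not match the study's. The stricter rule took no member with UK5099 (0.912% of all genes were called lower), none with butyrate (2.42%) and 7 with both (4.63%): Mcm2, Mcm5, Mcm6, Mcm7, Pole, Fen1 and Tyms. The count was also 7 without combination replicate 1, and no member was called after median-of-ratios scaling, where the differences of these 7 lay between -0.53 and -0.71.

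**Figure D1:**
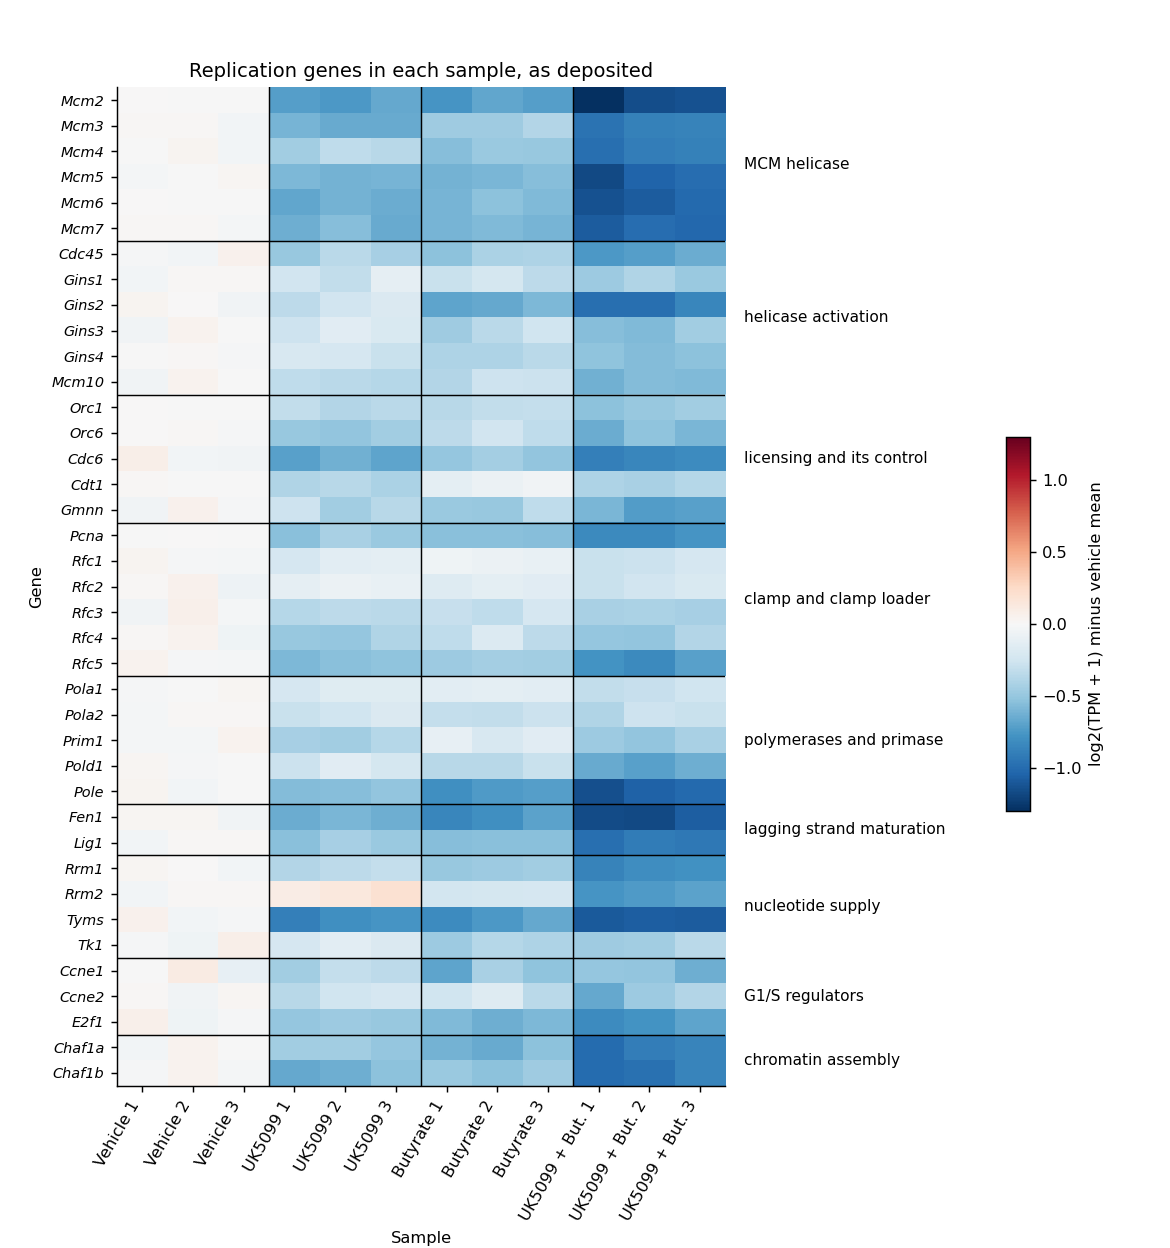
Heat map of the 39 replication genes (rows, by role) in the 12 samples (columns). Colour is log2(TPM + 1) minus the mean of the 3 vehicle samples, as deposited, from -1.3 (dark blue) to 1.3 (dark red). Nearly all cells of the 9 treated samples are blue and the 3 combination samples are darkest, while Rrm2 is pale red in the 3 UK5099 samples.

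The MCM helicase, the ring of 6 related ATPases that unwinds DNA, had 4 of the 7 called members. Being called also depends on level, because the added 1 TPM shrinks the differences of low genes. With both compounds Chaf1b was at 45.4% of vehicle and not called, while Mcm7 was at 48.3% and called. All 6 MCM genes fell with both compounds under both scalings. Mcm2 was at 32.8, 32.4 and 32.5 TPM in the vehicle samples, 19.4, 19.0 and 20.1 with UK5099, 18.7, 20.0001 and 19.5 with butyrate and 12.6, 14.1 and 14.3 with both. The vehicle samples were highest, the combination samples lowest, and the single treatments lay together between them. With both compounds Mcm2 was at 42.0% of its vehicle mean, a log2(TPM + 1) difference of -1.19 (SE 0.04, adjusted p = 7.14e-09), and -0.71 after median-of-ratios scaling. Mcm5 was at 28.2, 28.6 and 29.3 TPM in the vehicle samples, 18.8, 18.4 and 18.5 with UK5099, 18.4, 18.7 and 19.3 with butyrate and 12.2, 13.4 and 13.9 with both, and Mcm6 at 31.5, 31.2 and 31.1 TPM in the vehicle samples, 19.2, 20.1 and 19.7 with UK5099, 20.3, 21.3 and 20.7 with butyrate and 13.7, 14.2 and 15.1 with both. Neither gene's vehicle samples overlapped any treated sample. Mcm7 was at 73.8, 73.4 and 71.5 TPM in the vehicle samples, 46.5, 49.4 and 46.1 with UK5099, 47.8, 48.5 and 47.5 with butyrate and 34.0, 36.2 and 35.6 with both. For Mcm7 too the vehicle samples were highest and the combination samples lowest, and the single treatments overlapped. With both compounds the differences were -1.07 (SE 0.04) for Mcm5, -1.07 (SE 0.03) for Mcm6 and -1.03 (SE 0.03) for Mcm7, with adjusted p of 8.41e-09, 1.9e-09 and 2.15e-09. Mcm3 and Mcm4 fell by less, to 52.0% and 52.1% of vehicle. All 6 subunits fell with each treatment as deposited, with group medians of -0.63 for UK5099, -0.58 for butyrate and -1.05 for both. After median-of-ratios scaling all 6 still fell with UK5099 and with both, while with butyrate 5 fell and Mcm3 did not pass (-0.09, adjusted p = 0.0350). The ring holds 1 copy of each subunit, and the mRNAs stood at different shares of vehicle: UK5099 left Mcm4 at 76.3% of vehicle and Mcm2 at 59.9%. The ratio of Mcm2 to Mcm4 TPM within a sample, in which any scaling cancels, was 1 of 7 ratios chosen after the values were seen and given with no test. It was 0.608, 0.587 and 0.617 in the vehicle samples, 0.496, 0.448 and 0.480 with UK5099, 0.513, 0.524 and 0.511 with butyrate and 0.469, 0.498 and 0.494 with both. Every treated sample was below every vehicle sample.

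Promoter sequences of the called MCM genes are shown, with that of Rrm2. Promoters of MCM genes are textbook targets of E2F factors. Whether E2F factors had a part in the changes was not tested. Windows of 250 bases before to 50 bases after annotated starts were taken by symbol from RefSeq (GRCm38.p6), which held 35 windows for 31 of the 39 members. The words TTTCCCGC, TTTGGCGC, TTTGCCGC and TTTCGCGC, forms of the E2F site, were searched on both strands, and overlapping matches were counted. At least 1 match stood in a window of 12 of the 31 members (38.7%), against 4.28% of the 12362 protein-coding genes of the table that had a window. Below, each window is printed 5′ to 3′ along its gene, with the matches in capitals and positions counted from the annotated start. Mcm5 holds overlapping matches that begin at -153 and -149, Mcm6 holds matches at -110, -106 and -47, of which the first pair overlap, and Mcm7 holds matches at -165 and 17 in the 1 of its 2 windows shown. Mcm3, whose window is not printed, holds matches at 20 and 39, and Mcm4 had no window. No match stood in the window of Mcm2, the subunit lowered most, or in that of Rrm2, the member that rose with UK5099.
Mcm5 chr8:75109259-75109558, plus strand: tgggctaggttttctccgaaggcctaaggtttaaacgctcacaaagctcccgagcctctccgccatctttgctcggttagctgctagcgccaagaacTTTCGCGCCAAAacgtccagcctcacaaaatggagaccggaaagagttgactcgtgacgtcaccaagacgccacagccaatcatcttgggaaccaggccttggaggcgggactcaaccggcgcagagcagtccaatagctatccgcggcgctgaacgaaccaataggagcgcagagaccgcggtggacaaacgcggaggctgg
Mcm6 chr1:128359656-128359955, minus strand: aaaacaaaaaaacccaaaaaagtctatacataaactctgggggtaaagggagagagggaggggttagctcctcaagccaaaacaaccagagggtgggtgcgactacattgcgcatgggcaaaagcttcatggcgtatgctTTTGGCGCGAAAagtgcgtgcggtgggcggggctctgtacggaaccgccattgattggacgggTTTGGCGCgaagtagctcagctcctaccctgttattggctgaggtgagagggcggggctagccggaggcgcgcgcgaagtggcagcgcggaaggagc
Mcm7 chr5:138171834-138172133, minus strand: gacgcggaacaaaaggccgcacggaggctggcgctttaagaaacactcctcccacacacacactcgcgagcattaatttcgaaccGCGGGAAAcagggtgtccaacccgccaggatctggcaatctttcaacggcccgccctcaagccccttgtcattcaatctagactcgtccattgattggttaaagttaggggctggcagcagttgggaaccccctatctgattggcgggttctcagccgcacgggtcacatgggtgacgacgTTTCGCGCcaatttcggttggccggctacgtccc
Mcm2 chr6:88898731-88899030, minus strand: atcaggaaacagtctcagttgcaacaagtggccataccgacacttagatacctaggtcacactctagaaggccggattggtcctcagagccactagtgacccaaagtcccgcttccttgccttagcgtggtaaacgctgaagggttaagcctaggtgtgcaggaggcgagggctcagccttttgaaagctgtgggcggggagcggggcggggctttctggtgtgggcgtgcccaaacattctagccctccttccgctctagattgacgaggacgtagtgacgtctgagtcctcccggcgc
Rrm2 chr12:24708004-24708303, plus strand: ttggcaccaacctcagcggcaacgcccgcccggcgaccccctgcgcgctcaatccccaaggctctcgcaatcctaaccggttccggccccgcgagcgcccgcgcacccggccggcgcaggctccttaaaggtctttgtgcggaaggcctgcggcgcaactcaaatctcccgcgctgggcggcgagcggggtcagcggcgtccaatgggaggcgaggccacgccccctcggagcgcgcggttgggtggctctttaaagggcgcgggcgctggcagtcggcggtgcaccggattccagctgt
A match is a description of the letters and not evidence of binding. Most members are known E2F targets, so the choice of genes itself favours a higher share of matches among them. The 12 members with a match had a median combination difference of -0.76 (from -1.07 for Mcm6 to -0.29 for Pola1), and the 19 without a match had -0.73 (from -1.19 for Mcm2 to -0.26 for Rfc1). After median-of-ratios scaling the medians were -0.32 and -0.29. Exact words in windows at annotated starts can miss sites, so members without a match may still hold an E2F site. The medians therefore do not compare members with and without such a site.

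Genes of helicase activation had a combination median of -0.57, nearer to vehicle than the ring, a gap that the added 1 TPM widens for low genes. As a share of vehicle, Cdc45 (48.5%) and Gins2 (50.2%) lay within the ring's range, from 42.0% (Mcm2) to 52.1% (Mcm4). Gins1, Gins3, Gins4 and Mcm10 lay above it. Gins2, a subunit of the GINS complex, was at 23.6, 23.0 and 22.1 TPM in the vehicle samples, 17.9, 19.1 and 19.96 with UK5099, 13.9, 14.1 and 14.9 with butyrate and 11.1, 11.1 and 12.3 with both. Its UK5099 samples lay below vehicle, and the butyrate samples were lower still. The differences were -0.26 with UK5099 (SE 0.05, adjusted p = 0.00206), -0.65 with butyrate (SE 0.05, adjusted p = 2.08e-06) and -0.94 with both (SE 0.05, adjusted p = 9.77e-08). Without vehicle replicate 1 the UK5099 difference was -0.24 and did not pass (adjusted p = 0.01002). Gins2 was lower with butyrate than with UK5099, with a difference of -0.39 as deposited (adjusted p = 0.000127) and -0.19 after median-of-ratios scaling (adjusted p = 0.00398). Cdc45, which joins GINS on the ring, was at 2.93 ± 0.137 TPM in vehicle and 1.42 ± 0.0868 TPM with both (SD, n = 3), and Mcm10, which helps the ring start, at 4.66 ± 0.198 and 2.76 ± 0.0914 TPM. The other GINS subunits were at 58.8% (Gins1), 54.2% (Gins3) and 65.6% (Gins4) of vehicle with both compounds. All 6 genes fell with butyrate and with both, and 5 with UK5099, where Gins3 did not pass (-0.20, adjusted p = 0.0160). After median-of-ratios scaling 2 fell with UK5099, 2 with butyrate and 4 with both, and all 6 kept a negative sign in each.

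The licensing factors split under butyrate. Cdc6, the ATPase that brings the ring to origins, was at 6.48, 5.91 and 5.86 TPM in the vehicle samples, 3.34, 3.602 and 3.41 with UK5099, 3.996, 4.21 and 3.95 with butyrate and 2.83, 2.93 and 3.01 with both. All UK5099 samples were below all butyrate samples, and the combination samples were lowest. The Cdc6 differences were -0.67 with UK5099 (SE 0.04, adjusted p = 7.59e-07), -0.49 with butyrate (SE 0.04, adjusted p = 2.52e-06) and -0.85 with both (SE 0.04, adjusted p = 3.13e-08). Cdt1, the partner that loads the ring and that is described here because it stood out once values were seen, was at 35.6, 34.9 and 34.9 TPM in the vehicle samples, 26.5, 27.1 and 26.1 with UK5099, 32.1, 33.2 and 34.0 with butyrate and 26.4, 26.1 and 26.9 with both. Its butyrate samples lay close under vehicle, and its combination samples overlapped the UK5099 samples. Cdt1 fell with UK5099 (-0.39, SE 0.02, adjusted p = 9.57e-07) and did not pass with butyrate (-0.08, 95% interval -0.14 to -0.03, adjusted p = 0.0125). Without butyrate replicate 3 the butyrate difference was -0.10 and passed as a fall (adjusted p = 0.00471). After median-of-ratios scaling Cdt1 rose with butyrate by 0.27 (adjusted p = 8.5e-06) and with both by 0.10 (adjusted p = 0.00607), the reverse of the deposited direction, and still fell with UK5099 (-0.24, adjusted p = 2.78e-05). Within a sample, the ratio of Cdt1 to Cdc6 was 5.49, 5.91 and 5.95 in the vehicle samples, 7.94, 7.53 and 7.67 with UK5099, 8.03, 7.90 and 8.61 with butyrate and 9.32, 8.89 and 8.91 with both. Every treated sample was above every vehicle sample in that ratio, whatever the scaling. Geminin, which inhibits Cdt1, was at 13.1 ± 0.468, 9.96 ± 0.667, 9.41 ± 0.704 and 7.82 ± 0.438 TPM in vehicle, UK5099, butyrate and both (SD, n = 3), and the ratio of Cdt1 to Gmnn was 2.81, 2.57 and 2.69 in the vehicle samples, 2.49, 2.92 and 2.63 with UK5099, 3.55, 3.70 and 3.33 with butyrate and 3.17, 3.47 and 3.53 with both. Butyrate and combination samples were above all vehicle and UK5099 samples in that ratio. The origin subunits Orc1 and Orc6 were at 54.7% and 64.5% of vehicle with both. Of the 5 genes, 5 fell with UK5099, 4 with butyrate and 5 with both as deposited, and 4, 2 and 2 after scaling.

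Of the clamp and its loader, Pcna and Rfc5 were lowest against vehicle with both compounds, and Rfc1 and Rfc2 lay nearest to it. Pcna, the ring that tethers polymerases to DNA, was at 182, 183 and 181 TPM in the vehicle samples, 124, 135 and 130.1 with UK5099, 124, 124 and 124 with butyrate and 101.9, 101.99 and 106 with both. The vehicle samples stood above all others and the combination samples below all others. Its difference was -0.48 with UK5099 (SE 0.03, adjusted p = 1.04e-06), -0.55 with butyrate (SE 0.03, adjusted p = 1.56e-07) and -0.81 with both (SE 0.03, adjusted p = 6.92e-09), and -0.33, -0.19 and -0.30 after median-of-ratios scaling. Rfc1, the large subunit of the loader, and Rfc2, a small one, were singled out after their values were seen as the members nearest to vehicle with both compounds. Rfc1 was at 5.52, 5.29 and 5.22 TPM in the vehicle samples, 4.46, 4.75 and 4.82 with UK5099, 5.12, 5.02 and 4.92 with butyrate and 4.18, 4.24 and 4.44 with both. Rfc2 was at 12.3, 12.7 and 11.5 TPM in the vehicle samples, 11.1, 11.4 and 11.3 with UK5099, 10.7, 10.996 and 10.9 with butyrate and 9.76, 10.1 and 10.49 with both. For both genes every combination sample was below every other sample, and for Rfc2 the butyrate samples were all below the UK5099 samples, the reverse of Rfc1. Their combination differences of -0.26 (SE 0.03) and -0.24 (SE 0.03) passed as falls (adjusted p = 3.13e-05 and 0.000130), and after median-of-ratios scaling they passed as rises of 0.16 and 0.22 (adjusted p = 0.000361 and 0.000104). The ratio of Rfc1 to Pcna within a sample was 0.0304, 0.0289 and 0.0289 in the vehicle samples, 0.0360, 0.0351 and 0.0370 with UK5099, 0.0412, 0.0403 and 0.0398 with butyrate and 0.0410, 0.0416 and 0.0418 with both, and every treated sample was above every vehicle sample. Rfc3, Rfc4 and Rfc5, the other small loader subunits, were at 72.9%, 67.5% and 56.5% of vehicle with both. Of the 6 genes, 5 fell with UK5099, 5 with butyrate and 6 with both as deposited, while after scaling 4, 2 and 2 fell and 0, 2 and 2 rose.

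Among the polymerases, the catalytic subunit of polymerase epsilon stood apart from the rest. Pole, the leading strand polymerase, was at 4.71, 4.45 and 4.57 TPM in the vehicle samples, 2.76, 2.79 and 2.91 with UK5099, 2.22, 2.34 and 2.39 with butyrate and 1.52, 1.69 and 1.76 with both. All 4 groups were separate, in the order vehicle, UK5099, butyrate and both. With both compounds Pole was at 36.2% of vehicle, the lowest share among the 39 members, with a difference of -1.07 (SE 0.04, adjusted p = 4.22e-09) that the added 1 TPM makes smaller than the ratio of means. After median-of-ratios scaling the Pole differences were -0.41, -0.47 and -0.70 with UK5099, butyrate and both, with adjusted p of 8.17e-06, 1.83e-06 and 8.1e-08. Pold1, the catalytic subunit of polymerase delta on the lagging strand, was at 13.3 ± 0.234 TPM in vehicle and 7.99 ± 0.212 TPM with both (SD, n = 3), or 60.3%. The ratio of Pole to Pold1 was 0.349, 0.340 and 0.347 in the vehicle samples, 0.257, 0.236 and 0.261 with UK5099, 0.219, 0.232 and 0.224 with butyrate and 0.189, 0.218 and 0.216 with both, lower in every treated sample than in every vehicle sample. Of the subunits that make primers, Pola1 was at 58.4%, Pola2 at 77.0% and Prim1 at 68.8% of vehicle with both. Pola1 spans a very long gene and had at most 0.816 TPM, so its log2(TPM + 1) difference of -0.29 understates its change. Prim1, the primase, was singled out after its values were seen and was higher with butyrate than with UK5099, by 0.27 as deposited (adjusted p = 0.000206) and 0.45 after scaling (adjusted p = 5.44e-06). Prim1 was at 8.05, 8.08 and 8.53 TPM in the vehicle samples, 5.83, 5.73 and 6.10 with UK5099, 7.57, 6.97 and 7.33 with butyrate and 5.63, 5.44 and 5.89 with both. The butyrate samples lay between vehicle and the other treatments, and the UK5099 and combination samples overlapped. Against vehicle, butyrate gave a fall in Prim1 as deposited (-0.15, adjusted p = 0.00526) and a rise after scaling (0.16, adjusted p = 0.00327). All 5 genes fell with each treatment as deposited, and 3, 1 and 3 fell after scaling.

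The nuclease and ligase that join lagging strand fragments both fell. Fen1, the flap nuclease, was at 45.2, 45.3 and 43.1 TPM in the vehicle samples, 28.1, 29.2 and 28.4 with UK5099, 24.2, 25.1 and 27.0 with butyrate and 19.3, 19.2 and 20.7 with both. No groups overlapped, and the butyrate samples were below the UK5099 samples. Its difference was -0.62 with UK5099 (SE 0.04, adjusted p = 2.42e-06), -0.78 with butyrate (SE 0.04, adjusted p = 1.87e-07) and -1.14 with both (SE 0.04, adjusted p = 9.31e-09), and -0.64 with both after median-of-ratios scaling. Lig1, the ligase, was at 15.5 ± 0.343, 10.8 ± 0.452, 10.3 ± 0.0716 and 7.59 ± 0.226 TPM in vehicle, UK5099, butyrate and both (SD, n = 3). Both genes fell with each treatment under both scalings.

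Nucleotide supply held Rrm2, the 1 member that rose as deposited. Rrm2, the small subunit of ribonucleotide reductase and the one whose level limits the enzyme in S phase, was at 122, 126 and 126 TPM in the vehicle samples, 133, 138 and 144 with UK5099, 106, 106 and 107 with butyrate and 73.2, 74.7 and 76.8 with both. UK5099 samples were all above vehicle, butyrate samples all below it, and combination samples the lowest. Rrm2 rose with UK5099 by 0.15 (SE 0.03, adjusted p = 0.00221, where 8.24% of all genes rose) and fell with both compounds, with a difference of -0.73 (SE 0.03, adjusted p = 1.12e-08). Without vehicle replicate 1 the UK5099 rise was 0.13 and did not pass (adjusted p = 0.0103). With butyrate its difference was -0.23 (SE 0.03, adjusted p = 6.79e-05) as deposited and 0.13 (adjusted p = 0.00154) after median-of-ratios scaling, so its direction there depended on the scaling, while the UK5099 rise became 0.30 (adjusted p = 7.96e-06). Rrm1, the large subunit of the same enzyme, was at 34.3, 33.7 and 32.8 TPM in the vehicle samples, 25.7, 26.3 and 26.9 with UK5099, 23.6, 24.0 and 24.3 with butyrate and 18.0, 18.7 and 19.1 with both, and fell with all 3 treatments (-0.34, -0.47 and -0.82, adjusted p = 6.22e-06, 2.67e-07 and 4.09e-09). The ratio of Rrm2 to Rrm1 within a sample was 3.55, 3.74 and 3.85 in the vehicle samples, 5.20, 5.24 and 5.35 with UK5099, 4.50, 4.43 and 4.40 with butyrate and 4.08, 3.99 and 4.02 with both. It was highest in the UK5099 samples, and all treated samples were above all vehicle samples. Tyms, which makes thymidylate, was at 10.99, 10.3 and 10.4 TPM in the vehicle samples, 5.25, 5.65 and 5.78 with UK5099, 5.58, 5.90 and 6.28 with butyrate and 4.43, 4.49 and 4.46 with both. Its UK5099 and butyrate samples overlapped, and the combination samples were below both. Tyms had the largest UK5099 fall of the 39 members, -0.82 (SE 0.04, adjusted p = 3.92e-07), and reached -1.08 with both (SE 0.04, adjusted p = 1.15e-08). Tk1, which salvages thymidine, fell with each treatment as deposited (-0.18, -0.42 and -0.42, adjusted p = 0.00872, 2.33e-05 and 1.59e-05) and passed with none after scaling. The ratio of Tyms to Tk1 was 0.590, 0.569 and 0.525 in the vehicle samples, 0.327, 0.330 and 0.351 with UK5099, 0.419, 0.412 and 0.448 with butyrate and 0.330, 0.333 and 0.307 with both, lower in every treated sample than in every vehicle sample. Pcna and Tyms have a pseudogene copy in the table. In 9 members (Cdc6, Gmnn, Orc1, Orc6, Rfc4, Rfc5, Fen1, Tyms and Ccne2) most recovered values under 1000 fragments were not whole numbers (tolerance 0.02). For Rfc5 and Fen1 this rests on 1 such value. Whether fragments were shared with other loci was not tested, so values of these 9 members and of Pcna are less certain. Members with no value under 1000 fragments, such as Rrm2 and Mcm7, were not assessed in this way.

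**Figure D2:**
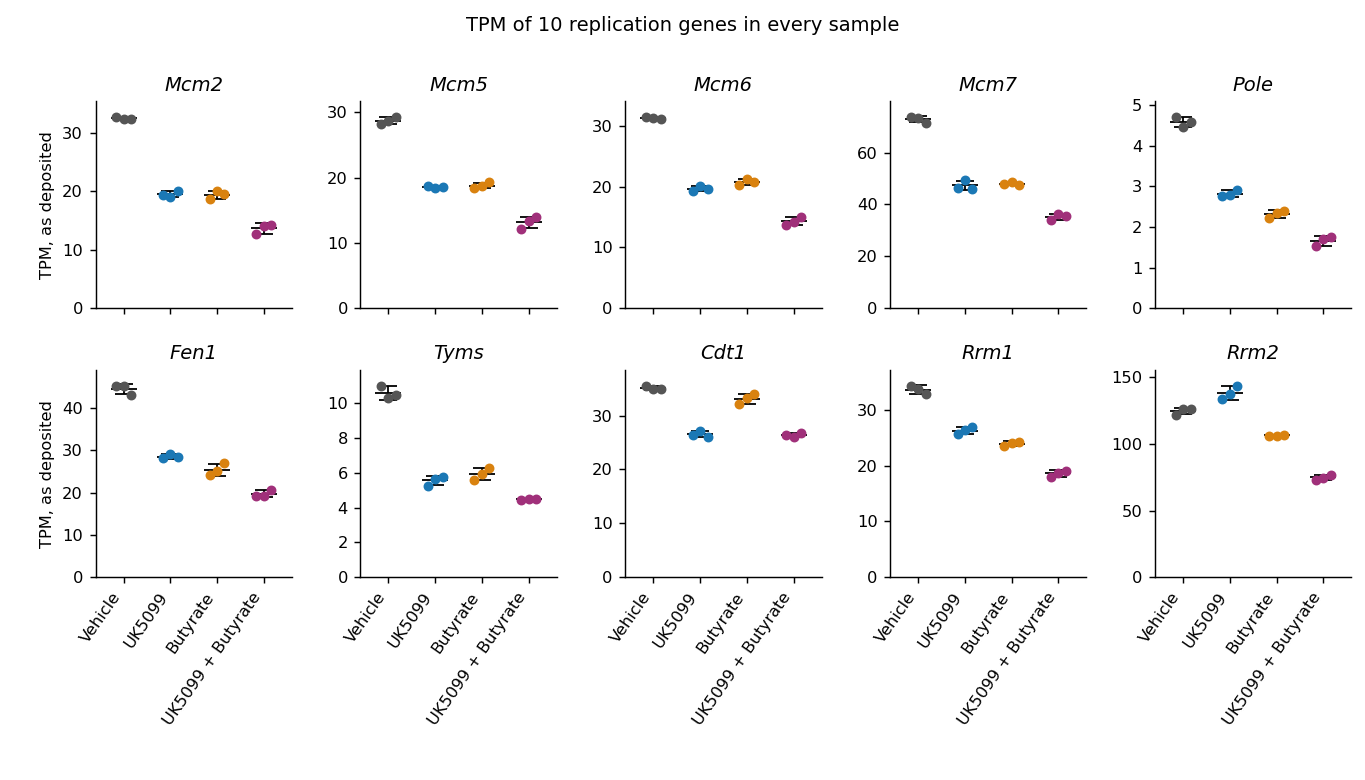
TPM of 10 replication genes in every sample, as deposited, with 1 panel per gene and axes from 0. Points are samples, long dashes are group means and error bars are SD (n = 3). In the panels from Mcm2 to Tyms and in that of Rrm1, vehicle is highest and the combination lowest, the Cdt1 butyrate points sit near vehicle, and the Rrm2 UK5099 points, from 133 to 144, sit above the vehicle points, from 122 to 126.

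The G1/S regulators fell moderately. E2f1, a transcription factor of this gene set and itself a target of E2F, was at 12.3, 11.2 and 11.5 TPM in the vehicle samples, 7.93, 8.08 and 8.0001 with UK5099, 7.497, 7.11 and 7.44 with butyrate and 6.16, 6.37 and 6.88 with both. The treated groups did not overlap vehicle, and the combination samples were lowest. Its difference was -0.49 with UK5099 (SE 0.04, adjusted p = 8.69e-06), -0.60 with butyrate (SE 0.04, adjusted p = 8.71e-07) and -0.76 with both (SE 0.04, adjusted p = 1.03e-07), and it also fell in all 3 after median-of-ratios scaling. Cyclin E1 (Ccne1) was at 6.54 ± 0.545 TPM in vehicle and 4.15 ± 0.272 TPM with both, and cyclin E2 (Ccne2) at 3.55 ± 0.118 and 2.21 ± 0.317 TPM (SD, n = 3). Ccne2 passed only with both (-0.51, adjusted p = 0.000177), and neither cyclin passed in any of the 3 comparisons after scaling. Of chromatin assembly factor, which places histones on new DNA, both large subunits fell with each treatment under both scalings. Chaf1b was at 7.23, 7.56 and 7.15 TPM in the vehicle samples, 4.25, 4.37 and 4.73 with UK5099, 4.93, 4.74 and 5.05 with butyrate and 3.15, 3.24 and 3.58 with both. UK5099 samples were just below the butyrate samples, and the combination samples were lowest. Its combination difference was -0.95 (SE 0.04, adjusted p = 4.4e-08), and that of Chaf1a was -0.92 (SE 0.04, adjusted p = 3.87e-08).

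**Figure D3:**
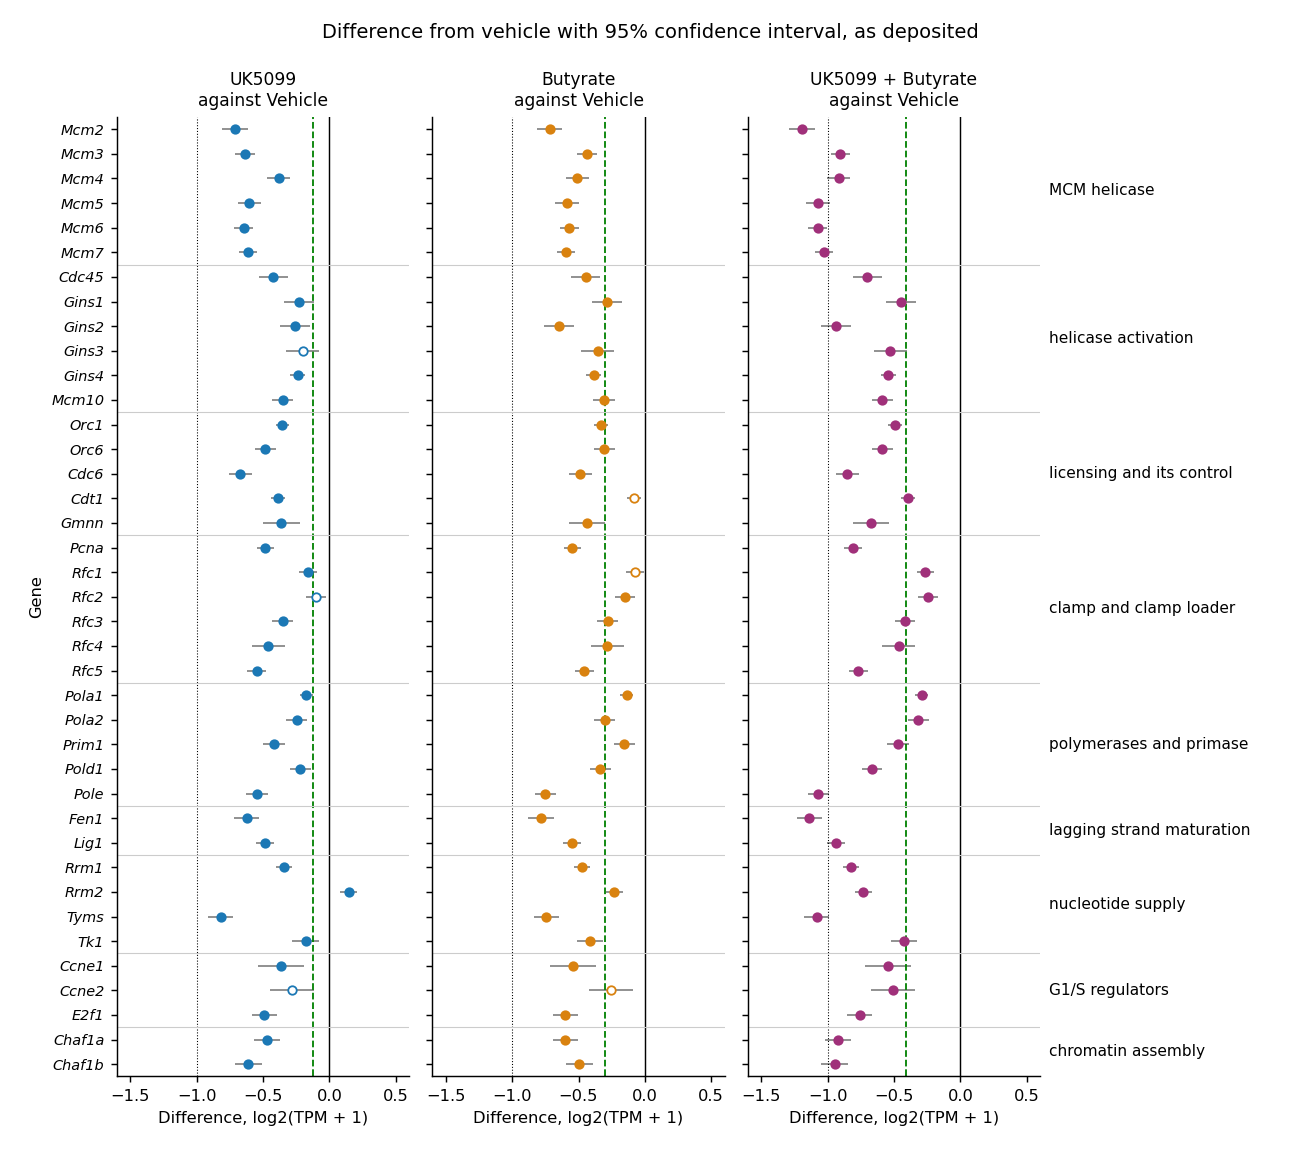
Difference from vehicle in log2(TPM + 1) for the 39 genes, 1 panel per treatment, as deposited. Points are limma estimates with 95% confidence intervals, filled at an adjusted p under 0.01 and open otherwise, the dashed green line is the median of expressed genes (-0.12, -0.30 and -0.41) and the dotted line marks -1. In the combination panel all 39 points are filled and left of 0, and 7 of them are left of -1.

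**Figure D4:**
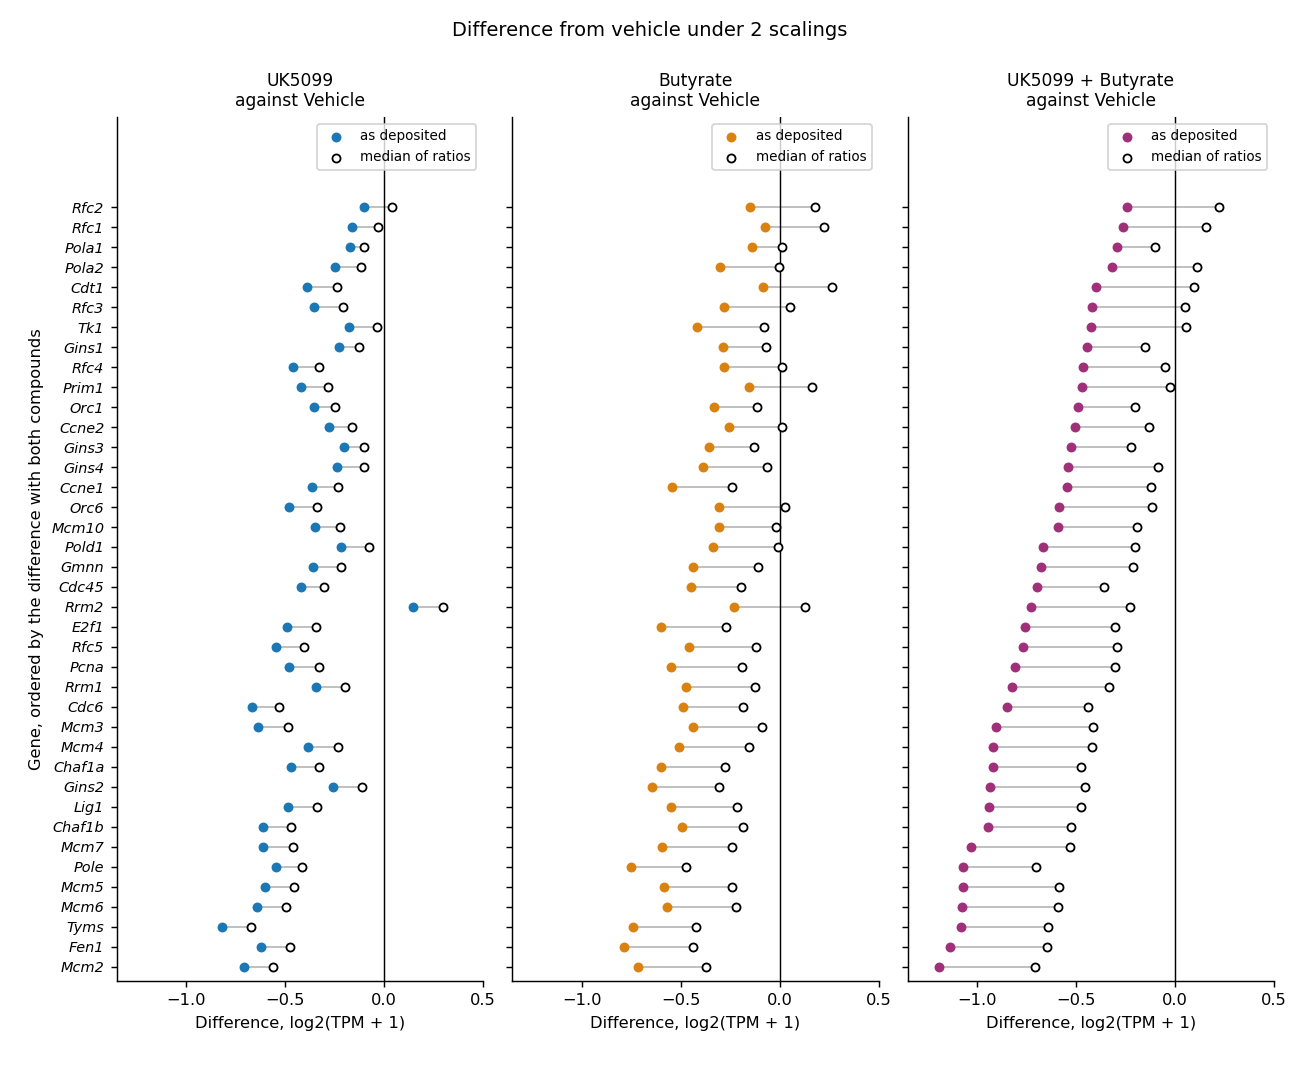
The same differences as deposited (coloured points) and after median-of-ratios scaling (open points), joined by a line for each gene. Genes are ordered by the combination difference as deposited, lowest at the bottom. Scaling moves the combination points right, from a median of -0.70 to -0.23, and takes 6 points past 0, those of Rfc1, Rfc2, Cdt1, Pola2, Rfc3 and Tk1, of which the first 3 named passed the test as rises.

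Levels can be set side by side between genes only per length, so recovered fragments were also divided by exonic length and depth. The unit is fragments per kilobase of exon per 1000000 fragments (SD, n = 3). Exonic length was the union of all annotated exons of a gene. The order of genes therefore also depends on which exons are annotated, which the SD does not measure. On this scale vehicle levels ran from 1.67 ± 0.0832 (Gins3) to 61.0 ± 0.385 (Pcna). Rrm2 (51.6 ± 1.36), Mcm4 (39.3 ± 0.699), Mcm6 (36.5 ± 0.257) and Mcm3 (28.5 ± 0.299) followed Pcna, each below the one before by more than the spread. Mcm5 (26.3 ± 0.774), Mcm7 (25.05 ± 0.185) and Lig1 (24.0 ± 0.691) came next. At the low end, Ccne2 (2.64 ± 0.104) and Mcm10 (2.71 ± 0.119) lay within their spread of each other. The catalytic subunits of the leading and lagging strand polymerases were at 4.07 ± 0.118 (Pole) and 8.52 ± 0.140 (Pold1). Genomic positions of the members called with both compounds, on the GRCm39 build that the labels' processing notes name and as the table lists them, were as follows. Mcm2 (ENSMUSG00000002870, chr6:88860456-88875763, minus strand), Mcm5 (ENSMUSG00000005410, chr8:75836197-75855068, plus strand), Mcm6 (ENSMUSG00000026355, chr1:128259327-128287402, minus strand) and Mcm7 (ENSMUSG00000029730, chr5:138162845-138170685, minus strand) make up the helicase genes of this set. Pole (ENSMUSG00000007080, chr5:110434172-110485341, plus strand), Fen1 (ENSMUSG00000024742, chr19:10176496-10181534, minus strand) and Tyms (ENSMUSG00000025747, chr5:30263200-30278616, minus strand) are the others. The opposite strand holds another gene that overlaps Mcm7, Pole or Fen1, and the same holds for 17 of the 39 members in all, while Rrm1 overlaps a gene on its own strand. Whether the counting used strand is not given in the sources used here, so values of these members may include fragments of the overlapping gene.

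Set directly against each other, the single treatments differed past the test for some members, in both directions. As deposited, butyrate was lower than UK5099 for 6 members (27.5% of all genes, 6090 of the 13345 expressed genes). It was higher for 5 (9.97% of all genes, 1575 expressed genes: Cdt1, Cdc6, Prim1, Orc6 and Mcm3). None passed the stricter rule (1.86% of all genes in either direction). After median-of-ratios scaling, butyrate was higher for 21 (18.1% of all genes, 3212 expressed genes) and lower for 2 (15.6% of all genes, 3387 expressed genes), Gins2 and Rrm2. Those 5 genes and these 2 kept their direction and passed under both scalings: Cdt1 was higher with butyrate by 0.31 and 0.51 while the Rrm2 differences were -0.38 and -0.17 (adjusted p = 3.45e-06, 1.66e-07, 3.45e-06 and 0.000268). Adding UK5099 to butyrate lowered 29 members as deposited (22% of all genes, 4797 of the 13345 expressed genes) with a median of -0.29. None passed the stricter rule (0.357% of all genes). After scaling 22 fell (9.28% of all genes, 1877 expressed genes) with a median of -0.17. Adding butyrate to UK5099 lowered 30 members as deposited (35.3% of all genes, 7811 of the 13345 expressed genes) with a median of -0.27. None passed the stricter rule (1.15% of all genes). After scaling only 7 fell (16.3% of all genes, 3551 of the 13345 expressed genes) and 9 rose (19.1% of all genes, 3323 expressed genes), with a median of 0.01. Rrm2 was the member with the largest fall when butyrate was added to UK5099, -0.88 (SE 0.03, adjusted p = 1.35e-08), and -0.52 after scaling (adjusted p = 1.62e-07). These comparisons share samples, so they are set beside each other and not counted as separate evidence.

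For most members the test found no departure from effects that add up on the log scale, which does not show that they add up. The interaction term, which is the combination difference minus the sum of the single differences, had a median of 0.15 over the members as deposited and 0.13 after scaling, and passed the stricter rule for none (1.01% of all genes). It was positive, meaning a smaller fall than the sum, at an adjusted p under 0.01 for 7 members (7.01% of all genes, 1290 of the 13345 expressed genes). It was negative for 1 (6.38% of all genes, 1390 expressed genes). The positive genes were Tyms (0.48, SE 0.06, adjusted p = 0.000399), E2f1 (0.33), Cdc6 (0.31), Rfc5 (0.24), Pola2 (0.23), Pcna (0.22) and Orc1 (0.19). Rrm2 was the negative gene, at -0.65 (SE 0.04, adjusted p = 5.81e-06). The single treatments moved Rrm2 to 111% and 85.2% of vehicle, and the combination took it to 59.98%. The Rrm2 interaction was -0.65 after median-of-ratios scaling and -0.63 without combination replicate 1. The Cdc6 term missed the limit without butyrate replicate 1, butyrate replicate 3 or combination replicate 3 (0.29 to 0.30, adjusted p = 0.0107, 0.0104 and 0.0101), and the Pcna term missed it with any of 8 samples left out (0.20 to 0.23, adjusted p of 0.0103 to 0.0123). After scaling Fen1 joined the positive genes, making 8 (6.95% of all genes), and Rrm2 was again the 1 negative gene (6.85% of all genes).

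**Figure D5:**
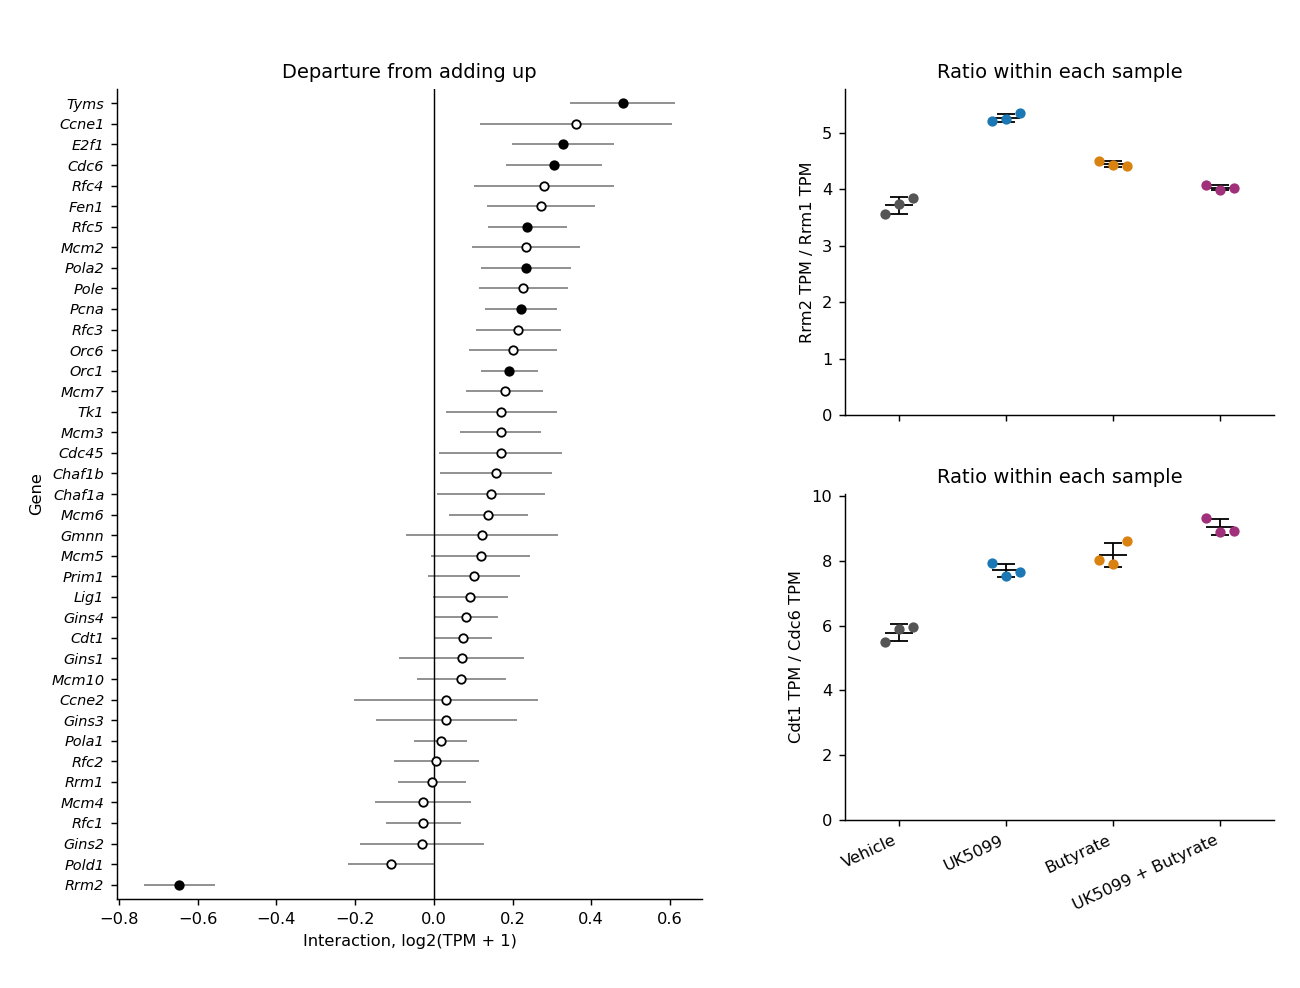
Left, the interaction term in log2(TPM + 1) for the 39 genes with 95% confidence intervals, filled at an adjusted p under 0.01. Right, the ratios of Rrm2 to Rrm1 and of Cdt1 to Cdc6 TPM in each sample, with group means and SD (n = 3) and axes from 0. Rrm2 stands alone at -0.65 on the left, and its ratio to Rrm1 is highest in the UK5099 samples, from 5.20 to 5.35.

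Other genes of replication and of the cell cycle moved with the members. A list of 54 further replication and S phase genes, all in the table, had a combination median of -0.62. Of these, 45 fell and 2 rose with UK5099, 47 fell and 1 rose with butyrate, and 51 fell and 1 rose with both. In the same order, 24.7%, 35.9% and 40.8% of all genes fell, and 38.1%, 57.6% and 64.2% of expressed genes. Of all 24674 genes, 2033, 2394 and 2502 rose. After scaling 38 of the 54 fell with both compounds (20.6% of all genes, 31.5% of expressed genes) and 4 rose (23.4% of all genes), with a median of -0.28. The lowest combination differences were those of Pclaf (-1.07), a partner of PCNA, the E2F repressor E2f8 (-1.04) and cyclin A2 (Ccna2, -1.005). The highest was that of Pold4, the smallest subunit of polymerase delta, which was at 102.5 ± 4.63 TPM without treatment and at 214 ± 2.28, 162 ± 5.53 and 260.2 ± 9.18 TPM after UK5099, butyrate and the combination (SD, n = 3). Pold4 rose by 1.06, 0.65 and 1.34 as deposited (adjusted p = 4.33e-08, 3.09e-07 and 1.71e-09), and by 1.21, 1.01 and 1.84 after scaling, while Pold1 of the same polymerase fell with all 3 as deposited and only with both after scaling. Next came Orc3 (0.05, adjusted p = 0.297) and Rb1 (-0.04, adjusted p = 0.217), neither past the test as deposited, and both rose after scaling, by 0.42 and 0.22 (adjusted p = 1.78e-06 and 6.26e-05). Of 22 mitosis genes, 20 fell with UK5099 (24.7% of all genes), 20 with butyrate (35.9%) and 22 with both (40.8%). Their combination median was -0.73. After scaling 18 of the mitosis genes fell with both (20.6% of all genes), with a median of -0.29. The inhibitors of cyclin-dependent kinases, which hold cells out of S phase, did not move in 1 direction. Cdkn1a was at 120.2 ± 3.39, 133 ± 3.05, 78.1 ± 1.40 and 97.9 ± 4.25 TPM in vehicle, UK5099, butyrate and both (SD, n = 3), and it rose with UK5099 under both scalings, by 0.15 and 0.30 (adjusted p = 0.00563 and 5.97e-05). The Cdkn1a mean was below vehicle with butyrate under both scalings. With both compounds it was below vehicle as deposited and above it after scaling. Cdkn1b, at 109 ± 2.52 TPM in vehicle and 53.2 ± 1.80 TPM with both, fell with both compounds by 1.01 as deposited and 0.51 after scaling. Cdkn2b fell from 38.4 ± 1.296 TPM to 22.1 ± 1.04, 19.1 ± 1.36 and 19.2 ± 2.09 TPM, under both scalings. Cdkn2d rose with UK5099, from 13.98 ± 0.373 to 17.6 ± 1.27 TPM, and with both, to 16.7 ± 1.25 TPM, under both scalings. Cdkn1c was at 7.26 ± 0.179, 3.82 ± 0.958, 4.62 ± 0.295 and 5.31 ± 0.657 TPM, and Cdkn2c at 9.92 ± 0.241, 9.41 ± 0.632, 8.22 ± 0.486 and 6.53 ± 0.225 TPM, in the same order of groups. Cdkn1c fell with each single compound as deposited and not past the test with both (-0.39, adjusted p = 0.0225), and Cdkn2c fell with butyrate and with both as deposited and passed in none of the 3 after scaling.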

How the data were processed

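RNA from 12 samples was measured as TPM. Per the labels' processing notes the authors used STAR 2.7.9a and Partek with GRCm39, which the study's methods give for its other RNA-seq, while for this experiment they name RSEM and GRCm38. The deposited TPM values were divided by a listed length that equalled stop minus start in 100% of rows, so introns are included. Whether counting used strand is not given in the sources used here. Multiplying TPM by listed length gave fragments, whole within 0.02 for 56.3 to 58.4% of values, and a depth of 33251598 to 43498728 per sample. Intervals cover the spread between samples.

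limma 3.58.1 (R 4.3.3) fitted UK5099, butyrate and their interaction to log2(TPM + 1) over 24674 genes and all samples, with Benjamini-Hochberg adjusted p. Genes fell or rose at an adjusted p under 0.01, and were called where the difference also passed 1. Samples were grouped by title. On data simulated with 200 changed genes per treatment, 165 (UK5099) and 153 (butyrate) were recovered and no unchanged gene was called. The seeded changes were all larger than 1 on the log2 scale and larger than any member's difference from vehicle. They held no interaction and no shift over all genes. These counts apply to the rule for called genes at such sizes, and the limit on adjusted p alone was not tested in this way. Alternatives changed the pseudocount, filter, scaling, count model (voom), block, prior, thresholds and samples. Values in every sample are given for called members, for the member of each role with the largest combination difference and for members that rose with 1 compound and fell with the other, or were singled out. Members, lists and tests were chosen with earlier results of these data known. Figures used matplotlib 3.10.9.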

Additional observations from a re-analysis of the deposited data

Results flagged for a closer look

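For 8 members the effect of 1 compound differed with the other compound present, by the interaction term of the limma model (Benjamini-Hochberg adjusted p over 24674 genes, 3 samples per group). Over all genes, 7.01% passed with a positive term and 6.38% with a negative one. Rrm2 had a negative term of -0.65 (adjusted p = 5.81e-06). The positive terms were 0.48 for Tyms (adjusted p = 0.000399), 0.33 for E2f1 (0.00308), 0.31 for Cdc6 (0.00327), 0.24 for Rfc5 (0.00437), 0.23 for Pola2 (0.00952), 0.22 for Pcna (0.00416) and 0.19 for Orc1 (0.00243). The Rrm2 term lay between -0.67 and -0.62 when each sample was left out in turn. The Cdc6 term then missed the limit for 3 of the samples left out, and the Pcna term for 8.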

How the results depend on the processing

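Scaling moved the results most. With both compounds 7 members were called as deposited (4.63% of all genes called lower), 11 with a pseudocount of 0.1 (9.18%), 12 with 0.01 (11.1%), 1 with voom (6.14%), 0 with median-of-ratios scaling, with quantile normalisation and with voom after median-of-ratios scaling (1.54%, 1.86% and 5.13%). With a limit of log2 of 1.5 on the difference, 9, 9, 24, 1 and 2 members were called for UK5099, butyrate, both, the interaction and adding butyrate to UK5099 (3.08%, 10.6%, 18.4%, 1.31% and 7.72% of all genes called lower). Members lower with butyrate numbered 19 after median-of-ratios scaling, 17 after quantile normalisation, 21 with voom and 19 with voom after median-of-ratios scaling (18.2%, 21.3%, 21.7% and 19.5% of all genes), and members lower with both numbered 25 after median-of-ratios scaling (20.6%). The median for UK5099 was -0.47 and -0.48 with pseudocounts of 0.1 and 0.01, -0.25 after median-of-ratios scaling and -0.27 after quantile normalisation. For butyrate it was -0.12 after median-of-ratios scaling, -0.13 after quantile normalisation, -0.17 with voom, -0.13 with voom after median-of-ratios scaling and -0.34 over nuclear protein-coding genes. For both it was -0.81 and -0.82 with the smaller pseudocounts, then -0.23, -0.33, -0.44 and -0.31 in the order of the first 4 butyrate settings. Reversed directions are listed for the recomputed medians and for recomputed genes that passed the test as deposited. The median for adding butyrate to UK5099 reversed (0.012 after median-of-ratios scaling, 0.017 with voom after it). So did the median for butyrate against UK5099 (0.14, 0.14, 0.19, 0.17 and 0.049 under the 5 butyrate settings). Cdt1 with both reversed (0.10, 0.065 and 0.10 under median-of-ratios, quantile and voom after median-of-ratios scaling). Rrm2 with butyrate reversed too (0.13, 0.080, 0.083 and 0.13 under the first 4). Genes that did not pass as deposited are outside this list. Cdt1 with butyrate is among them: its negative difference became 0.27 after median-of-ratios scaling. Median-of-ratios scaling also turned passing falls into passing rises for Rfc1 and Rfc2 with both (0.16 and 0.22), Prim1 and Rfc2 with butyrate (0.16 and 0.18), and Rfc2 and Rfc5 on adding butyrate to UK5099 (0.18 and 0.11). The cause was not tested. Leaving out each sample in turn gave 7 to 7 called with both, 32 to 36, 34 to 37 and 39 to 39 lower with UK5099, butyrate and both, and medians of -0.40 to -0.38, -0.46 to -0.41 and -0.73 to -0.68. The median for butyrate against UK5099 then ran from -0.04 to 0.02. Mcm2, Mcm5, Mcm7, Pole and Fen1 had an interaction past the limit with 1 sample left out (Mcm2 0.29, adjusted p = 0.00118 without combination replicate 1). Without UK5099 replicate 1, 32 members were lower with UK5099. Same-numbered samples did not deviate together (18 pairs, r from -0.11 to 0.03), and with the replicate block 7 members were called with both and 35, 36 and 39 were lower, while the Cdc6 interaction missed the limit (adjusted p = 0.0107). Depth limits Gins3 most, at 117 fragments in its lowest sample.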
